A study of Mus musculus with 6 samples.

Results

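The genes described here are 48 that encode the DNA replication machinery and the S phase program, listed by symbol: the proteins that load and start replication origins, the replicative helicase, the polymerases, the sliding clamp, the enzymes that supply deoxynucleotides, and the factors that rebuild chromatin behind the fork. They were chosen by name from their known roles, with earlier results of these data known. They are set against the 10316 genes that were tested, out of 25757 that could be followed in all 6 libraries. RNA-seq compared T follicular helper (Tfh) cells, the CD4+ T cells that help B cells in germinal centers, from mice lacking Bob1 in T cells and from control mice. Bob1 is the transcriptional coactivator encoded by Pou2af1, which binds with the Oct factors to octamer DNA.

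Bob1KO libraries (n = 3) came from FoxP3GFP/DTR CD4Cre/+ Bob1fl/fl mice and WT libraries (n = 3) from FoxP3GFP/DTR CD4+/+ Bob1fl/fl mice. Both groups therefore carried the floxed Bob1 allele, which spans the whole Pou2af1 gene, and the FoxP3 reporter that expresses GFP and the diphtheria toxin receptor. Cre was driven by the Cd4 promoter, so that the deletion reached every lineage that passes through CD4 expression, including CD8 T cells, while B cells kept Bob1. The mice were on a C57BL/6 background, sex-matched and 6 to 12 weeks old, and received 100 µg of NP-CGG in complete Freund's adjuvant intraperitoneally. On day 7, splenic CD3+CD4+ cells positive for CXCR5 and PD-1 and negative for GFP and for B220, a B cell antigen, were sorted in 3 experiments, each of which pooled 10 to 12 mice per group, and 0.7 ng of RNA was amplified. Each library is thus 1 pool, and P-values measure the spread between pools.

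DNA replication is prepared in G1, when ORC, Cdc6 and Cdt1 load the MCM2-7 helicase onto origins. In S phase, Cdc45 and GINS turn the helicase on, the polymerases copy both strands on the PCNA clamp, and the E2F transcription factors drive many of the genes involved. Antigen-activated T cells divide rapidly before and while they become Tfh cells, and these transcripts are widely read as a sign of cycling cells. In bulk RNA, fewer cells in S phase and less of these transcripts per cell cannot be told apart.

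A sequence feature that the choice of genes did not use is the E2F site. Promoter sequences (RefSeq, GRCm38.p6, 250 bases before to 50 bases after each start site) were found for 40 of the 48 genes, and were searched on both strands for TTTGGCGC, TTTCGCGC and TTTCCCGC, which can overlap one another on opposite strands. One or more matches were present in 16 of the 40 (40.0%), against 4.37% of the 7167 tested genes with a promoter in the same table. Promoters are shown for Mcm5, Gins3 and Rfc3, the members of the helicase, activator and clamp loader groups with the smallest P among those with a match before the start site, and for Pcna, the member with the smallest P of all, which had no match. Each runs 5′ to 3′ along the gene and ends at the base before the start site, except that of Mcm5, which ends where the annotated gene begins. Capitals mark the E2F matches.
Mcm5, chr8:75109349-75109467, plus strand: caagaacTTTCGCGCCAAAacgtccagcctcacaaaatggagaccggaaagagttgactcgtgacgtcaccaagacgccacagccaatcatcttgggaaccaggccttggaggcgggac
Gins3, chr8:95633399-95633558, plus strand: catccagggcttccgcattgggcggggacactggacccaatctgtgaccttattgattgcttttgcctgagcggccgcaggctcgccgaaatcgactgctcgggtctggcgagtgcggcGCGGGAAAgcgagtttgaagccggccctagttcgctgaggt
Rfc3, chr5:151651209-151651368, minus strand: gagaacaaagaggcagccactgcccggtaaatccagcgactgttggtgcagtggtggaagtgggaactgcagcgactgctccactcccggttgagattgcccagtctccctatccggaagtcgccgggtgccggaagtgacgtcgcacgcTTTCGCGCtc
Pcna, chr2:132253181-132253340, minus strand: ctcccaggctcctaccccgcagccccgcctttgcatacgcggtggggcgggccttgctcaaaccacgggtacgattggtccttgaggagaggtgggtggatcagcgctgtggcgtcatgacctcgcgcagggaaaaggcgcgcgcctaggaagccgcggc
Counting back from the start site, the match began at base -41 in Gins3, at -10 in Rfc3 and at -27 in Orc1, while Mcm5 had a pair of overlapping matches at -153 and -149. The other members with a match were Cdc6, Cdt1, Dnmt1, E2f2, Lig1, Mcm3, Mcm6, Mcm7, Pola1, Pold1, Pole2 and Uhrf1. The octamer ATTTGCAT was not found in any of the 40 promoters, against 1.61% of the promoters of tested genes. A match describes letters in a window and is not evidence of binding.

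Pou2af1 itself was at 1.16, 0.237 and 0.317 FPKM (fragments scaled to transcript length and library size) in Bob1KO replicates 1 to 3, against 46.1, 32.5 and 34.4 FPKM in WT replicates 1 to 3 (log2 fold change -4.65 ± 0.26, SE; limma adjusted P = 0.00378). The deleted gene was therefore low in each library labelled Bob1KO. Among the Tfh markers, Cxcr5 lay between 156.0 and 232.4 FPKM in Bob1KO and between 178.5 and 263.8 FPKM in WT libraries, and Bcl6 between 38.1 and 63.6 FPKM in Bob1KO and between 37.8 and 73.9 FPKM in WT libraries. Both defining Tfh genes were thus present in every library. Both replicate 2 libraries contained Y-linked transcripts (Ddx3y at 27.9 FPKM in Bob1KO and 29.9 FPKM in WT) and the other 4 had Ddx3y at 0, so sex was balanced between the groups. Relative to WT replicate 1, the commonest ratio among low values placed the depth of the other libraries between 0.917 for Bob1KO replicate 3 and 1.32 for Bob1KO replicate 2. These are rough estimates: only 16.9% and 28.6% of the low values in these libraries lay within 1% of a step expected at that depth. The number of reads behind each value is otherwise unknown, since FPKM keeps no counts.

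Transcripts of other cell types were also measured. Myeloid markers varied most: the sum of 11 genes was 4629, 83.6 and 1431 FPKM in Bob1KO replicates 1 to 3, against 680.4, 530.6 and 1002 FPKM in WT replicates 1 to 3. S100a8, S100a9 and Ngp, genes highly expressed in neutrophils, made up most of it, with S100a8 at 2027, 35.5 and 566.7 FPKM in Bob1KO and at 294.2, 253.7 and 447.0 FPKM in WT libraries. The 11 B cell markers summed to between 27.8 and 53.9 FPKM in Bob1KO and between 23.4 and 40.0 FPKM in WT libraries, most of it Cd22, and the defining markers Ms4a1 and Pax5 stayed below 1 FPKM in all 6 libraries. The other 2 most abundant B cell markers, Cd79b and Cd79a, reached at most 4.36 and 2.92 FPKM. Cd8a was below 0.2 FPKM in every library, although Nkg7, Klrb1c and Cd8b1 brought the 8 NK and CD8 T cell markers to between 91.7 and 138.3 FPKM in Bob1KO and between 104.2 and 149.3 FPKM in WT libraries. Plasma cell markers, led by Xbp1, Irf4 and Prdm1, summed to between 99.0 and 114.9 FPKM in Bob1KO and between 80.3 and 103.3 FPKM in WT libraries. Most of it was Xbp1, while Prdm1 and Sdc1 reached at most 1.86 and 1.28 FPKM in any library. Erythroid markers, led by Hba-a1, Car2 and Hba-a2, summed to at most 28.0 FPKM in Bob1KO and 18.3 FPKM in WT libraries. Regulatory T cell markers summed to between 140.9 and 189.9 FPKM in Bob1KO and between 128.1 and 207.8 FPKM in WT libraries. Ctla4 and Ikzf2 made up most of that sum, and Il2ra was at most 1.71 FPKM in any library. Foxp3, Jchain, Mzb1, Lyz2, Hbb-bt and Hbb-bs could not be followed in all 6 libraries and are in none of these sums. The part of such cells in the values of the replication genes was not tested.

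Most of the replication genes had somewhat lower values in Bob1KO than in WT Tfh libraries, and none of them passed the test for single genes. Of the 48, 46 had a mean of at least 1 FPKM and were tested, and none had a Benjamini-Hochberg adjusted P below 0.05 in limma (0.0194% of all 10316 tested genes did, 1 lower and 1 higher). The smallest adjusted P of a member was 0.793, for Pcna. At an unadjusted P below 0.05, 5 members were lower and 0 higher, that is 10.9% of those tested, against 2.11% of all genes that were lower. The log2 fold change was negative for 42 of 46 (91.3%), against 50.7% of all genes, and its median was -0.18 over the members and -0.00 over all genes. The members were read from the same 6 libraries, so their signs are not independent of each other, and these shares are a description without a test. In 8 members every Bob1KO library lay below every WT library, 17.4% of those tested against 4.85% of all genes, and 0 members had the groups apart in the other direction.

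Of the 46 log2 fold changes, 17 were below -0.25. They ran from -0.77 for Tyms, which was -0.32 without WT replicate 3, to 0.15 for Prim2. The median coefficient of variation of a member between replicates (SD over mean) was 15.9%. The 95% interval that Cufflinks gives for a value in 1 library had a median half-width of 7.86% of the value. An SD and a 95% half-width are unlike measures, so these figures are not on the same scale. The median log2 fold change was -0.18 in the 32 members with a mean of at least 10 FPKM and -0.18 in the 14 below it, against -0.03 and 0.06 over all genes in the same classes. Of the 32, 30 were negative, against 3569 of all 6262 genes in that class. Of the 14, 12 were negative, against 1658 of 4054.

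**Figure D1:**
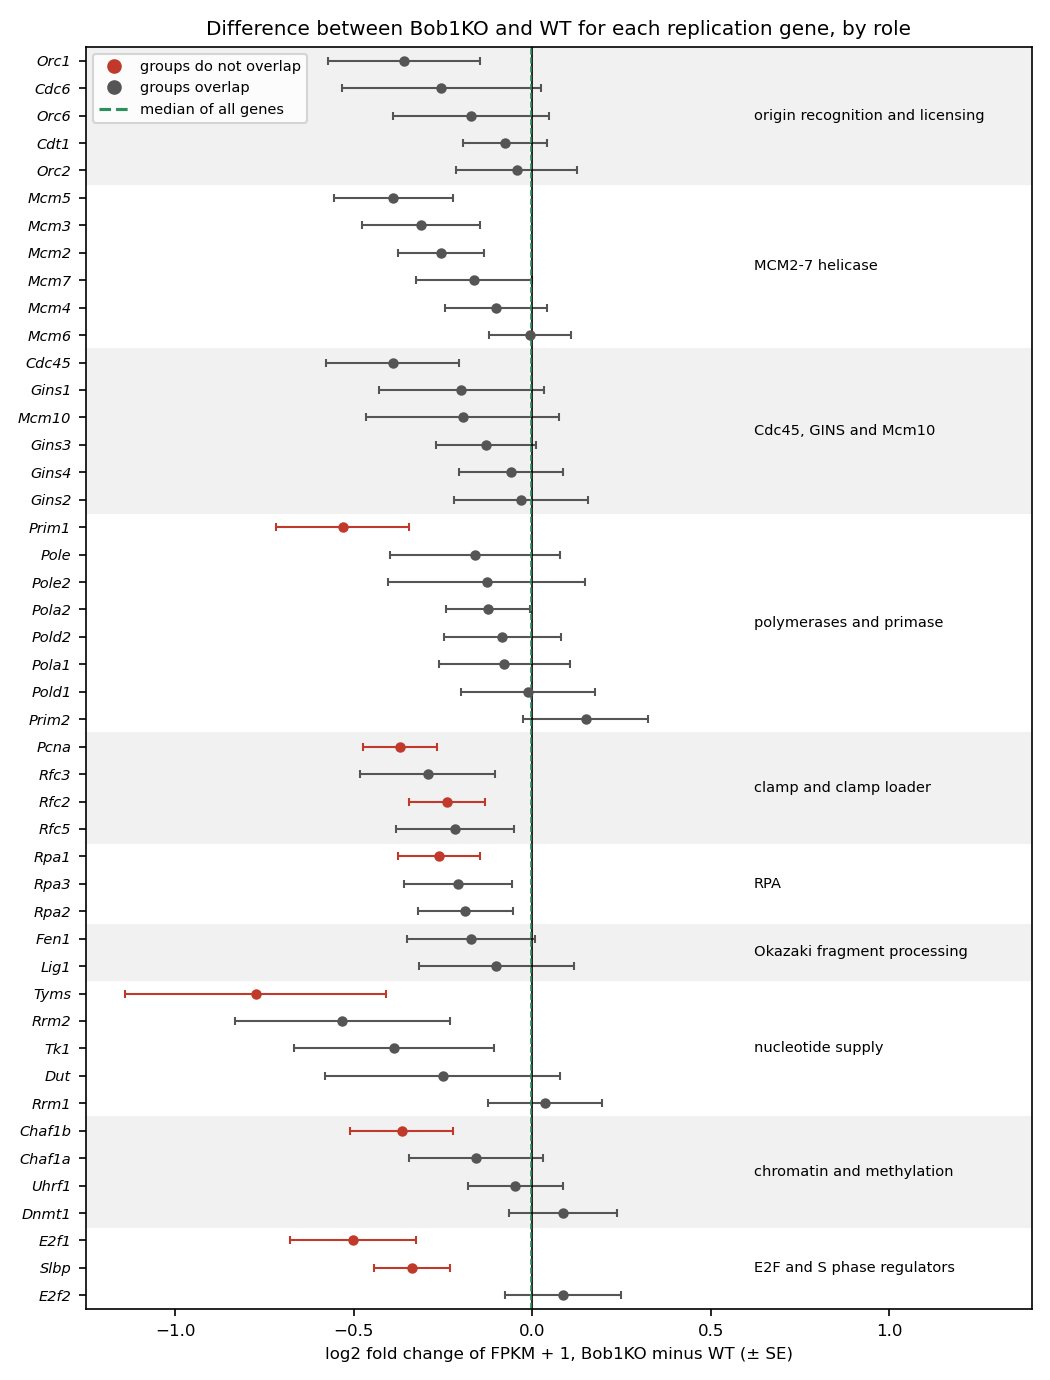
Log2 fold change of FPKM + 1, Bob1KO minus WT, of each of the 46 tested replication genes (points) with its SE (bars), grouped by role on the vertical axis; red points are genes whose Bob1KO and WT libraries do not overlap, and the dashed line is the median of all tested genes. Of the points, 42 lie left of 0, and the 4 to the right are Prim2, Rrm1, E2f2 and Dnmt1.

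In the clamp and clamp loader group, all 4 tested members had negative log2 fold changes, with a median of -0.27. Pcna (chr2:132249286-132253180), the ring that tethers polymerases to DNA, was at 79.8, 80.4 and 86.5 FPKM in Bob1KO libraries, against 108.5, 98.4 and 113.2 FPKM in WT libraries. The groups did not overlap, and the Bob1KO mean of 82.2 ± 3.72 FPKM was 77.1% of the WT mean of 106.7 ± 7.56 FPKM (SD, n = 3 each; log2 fold change -0.37 ± 0.10, SE; limma unadjusted P = 0.0089, adjusted P = 0.793). Rfc2, a small subunit of the loader that opens the ring, was at 51.9, 55.6 and 52.2 FPKM in Bob1KO libraries, against 63.5, 57.7 and 68.3 FPKM in WT libraries, again without overlap (log2 fold change -0.24, limma adjusted P = 0.935). Rfc3 and Rfc5, with log2 fold changes of -0.29 and -0.22, overlapped between the groups. Rfc4 was listed at 0 in all 6 libraries, although the authors' own group values were 17.0 FPKM for Bob1KO and 19.5 FPKM for WT, so it was not tested here. Pcna has 2 annotated pseudogenes, and reads shared with them could be assigned either way. Its values were also built differently between libraries. In Bob1KO replicates 1 and 3 and in WT replicate 3 they sum 2 assembled rows, and in the other libraries they rest on 1. The smaller row held 5.63 and 5.77 FPKM in those Bob1KO libraries and 10.3 FPKM in WT replicate 3.

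**Figure D2:**
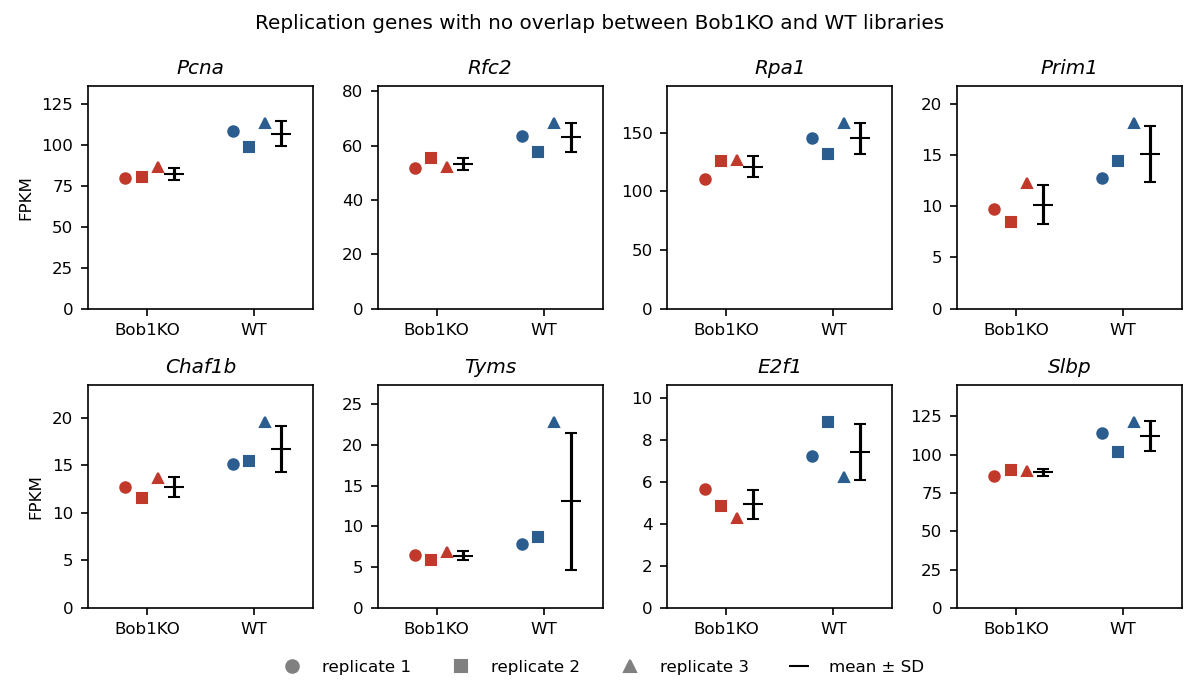
FPKM (vertical axes, from 0) of the 8 replication genes whose Bob1KO and WT libraries do not overlap, with Bob1KO (red) left of WT (blue) and 1 point per library; bars are the mean ± SD of 3 libraries. For Pcna the Bob1KO libraries sit between 79.8 and 86.5 FPKM and the WT libraries between 98.4 and 113.2 FPKM, and for Tyms the WT mean is set by WT replicate 3 at 22.8 FPKM.

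Slbp and E2f1 lay apart in the regulator group, and E2f2 did not. Slbp, which binds the stem-loop of replication-dependent histone mRNAs and whose protein peaks in S phase, was at 86.05, 90.03 and 89.53 FPKM in Bob1KO libraries, against 114.3, 101.7 and 121.1 FPKM in WT libraries. That is 78.8% of the WT mean (log2 fold change -0.34 ± 0.11, SE; limma unadjusted P = 0.0153, adjusted P = 0.857). E2f1, the activator E2F that many members respond to, was at 5.68, 4.84 and 4.30 FPKM in Bob1KO libraries, against 7.24, 8.85 and 6.24 FPKM in WT libraries, 66.4% of the WT mean (log2 fold change -0.50 ± 0.18, SE; limma unadjusted P = 0.025, adjusted P = 0.921). E2f2, the related activator, was at 10.1, 8.07 and 8.26 FPKM in Bob1KO libraries, against 6.87, 9.12 and 8.81 FPKM in WT libraries, which overlap. E2f1 overlaps the annotated gene Necab3, so part of its reads could belong to the neighbor.

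Members were also split by the E2F match in their promoter, as a description without a test. The median log2 fold change was -0.11 in the 16 members with a match, 14 of them negative, and -0.25 in the 23 tested members without one, 22 of them negative. Over all tested genes 50.7% were negative. Of the genes whose promoters are printed above, Mcm5, Gins3 and Rfc3, with matches, had log2 fold changes of -0.39, -0.13 and -0.29, and Pcna, without one, had -0.37.

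Among the origin licensing factors all 5 log2 fold changes were negative, with a median of -0.17, and the groups overlapped for each. Orc1, the ORC subunit whose level follows the cell cycle, was at 1.145, 1.89 and 1.55 FPKM in Bob1KO libraries, against 2.69, 1.88 and 2.13 FPKM in WT libraries, where 1 WT library fell among the Bob1KO values (log2 fold change -0.36, limma adjusted P = 0.946). Cdc6, which recruits the helicase to ORC, was at 1.06, 1.83 and 3.10 FPKM in Bob1KO libraries, against 2.74, 2.17 and 2.43 FPKM in WT libraries, with both the lowest and the highest value in Bob1KO. Cdt1, the other loading factor, and Orc2 and Orc6 had log2 fold changes of -0.07, -0.04 and -0.17.

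The 6 subunits of the MCM2-7 helicase ring, which works as an equimolar hexamer, had log2 fold changes between -0.39 and -0.01. Mcm5 was at 30.3, 26.0 and 28.5 FPKM in Bob1KO libraries, against 29.9, 38.0 and 45.5 FPKM in WT libraries (log2 fold change -0.39 ± 0.17, SE; limma unadjusted P = 0.0512, adjusted P = 0.932). Only Bob1KO replicate 1 overlapped the WT range. Mcm2 was at 39.5, 37.7 and 44.9 FPKM in Bob1KO libraries, against 44.6, 48.1 and 53.6 FPKM in WT libraries, overlapping by a narrow margin (log2 fold change -0.26, limma adjusted P = 0.94). Mcm6, the most abundant subunit, was at 122.2, 104.4 and 127.4 FPKM in Bob1KO libraries, against 123.0, 111.6 and 120.1 FPKM in WT libraries, so its groups overlapped throughout (log2 fold change -0.01 ± 0.12, SE). Mcm3, Mcm7 and Mcm4 had log2 fold changes of -0.31, -0.16 and -0.10. Whether the subunits differ from each other was not tested, and the Mcm7 locus also holds 3 annotated microRNA genes (Mir106b, Mir25 and Mir93) and overlaps Ap4m1.

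Of the factors that switch the helicase on, Cdc45 was at 3.32, 3.42 and 4.31 FPKM in Bob1KO libraries, against 5.34, 4.16 and 5.99 FPKM in WT libraries, 71.3% of the WT mean (log2 fold change -0.39 ± 0.18, SE; limma unadjusted P = 0.072, adjusted P = 0.94). The overlap was that of Bob1KO replicate 3 with WT replicate 2. Gins3, a subunit of the GINS complex, was at 6.37, 6.72 and 7.28 FPKM in Bob1KO libraries, against 8.40, 6.84 and 7.38 FPKM in WT libraries (log2 fold change -0.13). Gins1, Gins2, Gins4 and Mcm10, an initiation factor, had log2 fold changes of -0.20, -0.03, -0.06 and -0.19, all with overlapping groups.

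Among the 8 polymerase and primase genes only Prim1 lay apart. Prim1 (chr10:128015215-128030030), the catalytic primase subunit that makes the RNA primer, was at 9.68, 8.49 and 12.3 FPKM in Bob1KO libraries, against 12.8, 14.4 and 18.1 FPKM in WT libraries, 67.2% of the WT mean (log2 fold change -0.53 ± 0.18, SE; limma unadjusted P = 0.0239, adjusted P = 0.921). Its partner Prim2 was at 6.46, 6.78 and 9.60 FPKM in Bob1KO libraries, against 6.92, 6.75 and 6.34 FPKM in WT libraries, with the highest value in Bob1KO replicate 3 (log2 fold change 0.15, limma adjusted P = 0.956). Pola2, the accessory subunit of the polymerase that extends the primer, was at 19.6, 22.4 and 21.1 FPKM in Bob1KO libraries, against 21.8, 22.2 and 25.1 FPKM in WT libraries. Its catalytic partner Pola1 had a log2 fold change of -0.08. The leading strand polymerase genes Pole and Pole2 were at -0.16 and -0.13, and the lagging strand genes Pold1 and Pold2 at -0.01 and -0.08.

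The 3 subunits of RPA, which coats single-stranded DNA, had similar values of log2 fold change: -0.26 for Rpa1, -0.19 for Rpa2 and -0.21 for Rpa3. Rpa1, the most abundant member at a mean of 133 FPKM over all libraries, was at 110.4, 125.7 and 126.5 FPKM in Bob1KO libraries, against 145.5, 131.9 and 158.1 FPKM in WT libraries, with no overlap (limma unadjusted P = 0.0589, adjusted P = 0.934). It overlaps the annotated gene Smyd4. Rpa2 was at 31.6, 29.2 and 31.0 FPKM in Bob1KO libraries, against 31.1, 33.3 and 41.2 FPKM in WT libraries, and overlapped through Bob1KO replicate 1. The enzymes that finish Okazaki fragments overlapped too. Fen1, the flap nuclease, was at 26.8, 29.9 and 39.1 FPKM in Bob1KO libraries, against 34.2, 31.3 and 42.5 FPKM in WT libraries. Lig1, the ligase, was at 27.2, 14.5 and 22.2 FPKM in Bob1KO libraries, against 23.0, 20.9 and 22.8 FPKM in WT libraries. Exo1, a nuclease also used in mismatch repair, was just under the filter with 0.577, 0.335 and 0.137 FPKM in Bob1KO libraries, against 0.373, 1.18 and 0.948 FPKM in WT libraries, and was not tested. The tested members nearest above the filter were Pole, at a mean of 1.10 FPKM, and Mcm10, at 1.26 FPKM.

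In the nucleotide supply group, 4 of 5 members were negative, with a median of -0.39. Tyms, which makes thymidylate, was at 6.53, 5.87 and 6.87 FPKM in Bob1KO libraries, against 7.86, 8.65 and 22.8 FPKM in WT libraries (log2 fold change -0.77 ± 0.37, SE; limma unadjusted P = 0.072, adjusted P = 0.94). The groups did not overlap, but the value of WT replicate 3 came from an assembled transcript that spanned chr5:30039749-30073631, while that of the other 5 libraries spanned chr5:30058200-30073625. These values are therefore not on the same footing, and without WT replicate 3 the log2 fold change was -0.32. Tyms also has 1 annotated pseudogene, Tyms-ps, with which reads could be shared. Rrm2, the S phase subunit of ribonucleotide reductase, was at 24.9, 13.8 and 25.6 FPKM in Bob1KO libraries, against 24.7, 25.9 and 43.8 FPKM in WT libraries (log2 fold change -0.53, limma adjusted P = 0.946), where Bob1KO replicate 2 was the lowest and WT replicate 3 the highest. Its partner Rrm1 had a log2 fold change of 0.04 ± 0.16 (SE), with overlapping groups. Tk1, the thymidine salvage kinase, and Dut, which removes dUTP, had log2 fold changes of -0.39 and -0.25.

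Among the chromatin members, Chaf1b, a subunit of the CAF-1 histone chaperone, was at 12.8, 11.6 and 13.7 FPKM in Bob1KO libraries, against 15.2, 15.5 and 19.5 FPKM in WT libraries, 76.0% of the WT mean and without overlap (log2 fold change -0.36 ± 0.14, SE; limma unadjusted P = 0.0384, adjusted P = 0.921). Chaf1a, the large CAF-1 subunit, was at 4.79, 3.10 and 4.27 FPKM in Bob1KO libraries, against 4.06, 4.79 and 4.92 FPKM in WT libraries. Dnmt1, the maintenance DNA methyltransferase, was at 24.6, 19.7 and 25.3 FPKM in Bob1KO libraries, against 25.2, 19.4 and 20.8 FPKM in WT libraries (log2 fold change 0.09). Uhrf1, which brings Dnmt1 to replicated DNA, had a log2 fold change of -0.05.

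The difference rested on some libraries more than on others. The median deviation of the 46 members from their mean over all libraries, on the log2 scale, was -0.13, -0.18 and 0.02 in Bob1KO replicates 1 to 3, against 0.01, 0.01 and 0.24 in WT replicates 1 to 3. Bob1KO replicate 3 thus lay within the WT range. WT replicate 3 held the highest value of 28 of the 46 members, against 26.8% of all genes, and Bob1KO replicate 2 the lowest of 22, against 20.0% of all genes. Without WT replicate 3, 35 of 46 members were negative (45.3% of all genes), with a median of -0.14 (0.02 over all genes), and 3 were lower at an unadjusted P of 0.05 (1.34% of all genes). Without Bob1KO replicate 2, 39 of 46 were negative (48.1% of all genes), the median was -0.13 (0.01 over all genes) and 2 were lower at that P (2.05% of all genes). Without Bob1KO replicate 1, the library with the most myeloid transcripts, 41 of 46 were negative (52.3% of all genes) and the median was -0.19 (-0.01 over all genes). The myeloid sums of the 5 libraries kept still differed, and their part in the difference was not tested.

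The libraries with and without Y-linked transcripts were also compared separately. With both replicate 2 libraries left out, an alternative chosen after seeing the data, 34 of 46 members were negative, with a median of -0.19, against 53% of all genes. In the replicate 2 libraries alone, 39 of 46 members were lower in Bob1KO, with a median difference of -0.18, against 46.5% of all genes. These hold 1 library per group, so that comparison has no replicate check. The authors' own group FPKM values, made from the same libraries, were lower for Bob1KO in 44 of the 48 members and higher in 3 (Prim2, Pold1 and E2f2), against 49.8% lower over 10244 genes. They include Rfc4 and a Tyms value of 19.4 FPKM for Bob1KO and 24.6 FPKM for WT.

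**Figure D3:**
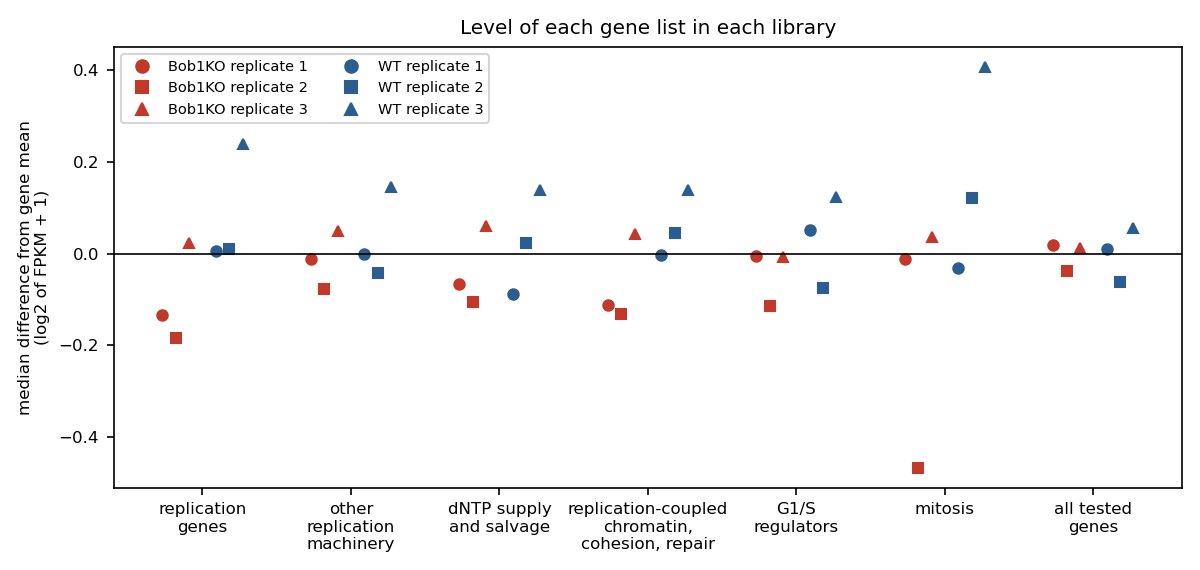
Median deviation of the genes of each list from their own mean over the 6 libraries (vertical axis, log2 of FPKM + 1), 1 point per library, with Bob1KO (red) left of WT (blue) in each list and the shape giving the replicate. For the replication genes the points run between -0.18 in Bob1KO replicate 2 and 0.24 in WT replicate 3, while all tested genes stay between -0.06 and 0.06.

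Other genes of the cell cycle were followed in lists of their own, which share no gene with the 48. The mitosis list had the most negative median, -0.28, with 22 of 25 tested genes negative (88.0%, against 50.7% of all genes). At an unadjusted limma P below 0.05, 4 were lower, against 2.11% of all genes. After adjustment 0 were called, against 0.0194% of all genes. Tpx2, a spindle assembly factor, was at 2.32, 0.794 and 1.86 FPKM in Bob1KO libraries, against 3.32, 3.32 and 3.46 FPKM in WT libraries (log2 fold change -0.76, limma adjusted P = 0.921). Ccnb2, a mitotic cyclin, was at 8.11, 3.53 and 6.81 FPKM in Bob1KO libraries, against 8.81, 11.3 and 17.1 FPKM in WT libraries, without overlap. Mki67, a widely used proliferation marker, had a log2 fold change of 0.01 ± 0.21 (SE). The library levels of the mitosis list also ran between Bob1KO replicate 2, at -0.47, and WT replicate 3, at 0.41.

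The remaining lists had weaker shares and medians closer to 0, beside 50.7% of all genes negative. Of 30 tested genes of other replication machinery, 19 were negative, with a median of -0.06. Gmnn, the inhibitor of Cdt1, was at 12.86, 12.01 and 10.75 FPKM in Bob1KO libraries, against 14.4, 18.3 and 18.6 FPKM in WT libraries (log2 fold change -0.48, limma adjusted P = 0.846), and Rnaseh2b, a subunit of the RNase that removes ribonucleotides, had a log2 fold change of -0.35. Of 24 genes of dNTP supply and salvage, 16 were negative, with a median of -0.11, led by Nme1 and Dctpp1 at -0.39 and -0.27. Of 23 genes of replication-coupled chromatin, cohesion and repair, 16 were negative, with a median of -0.13. Asf1b, a histone chaperone, was at 16.6, 12.9 and 17.2 FPKM in Bob1KO libraries, against 20.4, 20.1 and 29.7 FPKM in WT libraries, without overlap (log2 fold change -0.55, limma adjusted P = 0.921).

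The G1/S list had 17 of 26 tested genes negative (50.7% of all genes), with a median of -0.14 and 0 past the adjusted threshold (0.0194% of all genes). Ccne1, cyclin E1, which drives entry into S phase, was at 5.42, 6.52 and 6.76 FPKM in Bob1KO libraries, against 14.9, 14.1 and 14.0 FPKM in WT libraries. The groups were far apart, but the adjusted P was 0.107 (limma; log2 fold change -1.09 ± 0.13, SE). Rb1, the pocket protein that restrains E2F, had a log2 fold change of -0.26 and overlapping groups. Whether any of these lists differs from the 48 genes was not tested.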

How the data were processed

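Total RNA of sorted Tfh cells was amplified (SMART-Seq v4), made into libraries (Nextera XT) and sequenced on a NovaSeq 6000. Per the labels and the study's methods, the authors trimmed reads with cutadapt 1.2.1 and PRINSEQ 0.19.2, aligned them to GRCm38 (mm10) with TopHat2 2.0.13 and estimated FPKM per library with Cufflinks 2.2.1, while no source used here gives the annotation version. The deposited values used are FPKM with 95% limits for each library, and a table of the authors' group FPKM; its fold changes and P-values were not used. Between 94.1% and 95.9% of FPKM lay in rows named by the assembly, so rows were matched to genes by position (at least 0.5 of the joint length, or, for a gene left without a row in a library, a row covering at least 0.95 of the gene, as for Tyms in WT replicate 3; 91.0% to 91.6% of FPKM matched), and genes listed in all 6 libraries were kept. Counting is not stated to use strand, and 21 of the 48 members overlap another annotated gene.

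log2(FPKM + 1) was fitted with limma 3.58.1 (R 4.3.3; group only, variance trend, two-sided) on 10316 genes with a mean of at least 1 FPKM, adjusted by Benjamini-Hochberg at 0.05. A fold change on this scale understates low genes. An exact permutation test of 3 against 3 cannot go below P = 0.1. In simulated data the fit recovered 60% of 2-fold and 87% of 4-fold changes at the adjusted threshold, with 3 false calls. Changes under 2-fold, such as those of all the members, were not simulated. All members are accounted for; values per library are given for the 2 members of each role with the smallest P, any with groups apart, and a few (Mcm6, Prim2, E2f2, Dnmt1, Exo1) chosen after their values were seen. Of the companion lists, the 2 genes with the smallest P are named, except where a gene is not reported here; Mki67 was added in the same way. The members and lists were chosen with earlier results of these data known. Tables used Python 3.11.15 and pandas 2.3.3.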

Additional observations from a re-analysis of the deposited data

How the results depend on the processing

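No member passed the adjusted threshold under the main fit or any of the 16 alternatives in limma, beside 5 members at an unadjusted P below 0.05. That count was 8 with median scaling (2.52% of all genes), 9 with the replicate block (2.37%), 2 with both replicate 2 libraries left out (2.33%), and 2 to 7 with 1 library left out (1.34% to 2.65%). With 1 library left out, the median log2 fold change of the members ran between -0.23 and -0.13, between 35 and 43 members were negative, and 8 to 18 had groups apart, against 7.07% to 13.1% of all genes; with both replicate 2 libraries left out, 14 did, against 18% of all genes. Pou2af1 had an adjusted P of 0.0546 (log2 fold change -4.60) without both replicate 2 libraries, where fewer samples were fitted, and between 0.00143 and 0.048 in all other alternatives; with 1 library left out its log2 fold change ran between -4.91 and -4.50. The same-numbered Bob1KO and WT libraries had correlated deviations (0.114, 0.132 and 0.095 for numbers 1 to 3). Each correlated best with its own number, but no label says that the numbers pair the libraries. Deviations were taken from the group means, so these correlations are not independent of each other. Both number 2 libraries also held Y-linked transcripts, and the part of sex in their correlation was not tested. Each group held 1 library of each number, so the block could change only the SE and P. The members' median of -0.18 therefore could not move with it, and says nothing about pairing.

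The sign of single members was less stable, and the cause was not tested. With 1 library left out, the log2 fold change ran between -0.55 and 0.083 for Dut, -0.027 and 0.15 for E2f2, -0.19 and 0.083 for Gins2, -0.19 and 0.049 for Gins4, -0.29 and 0.14 for Lig1, -0.35 and 0.037 for Mcm10, -0.064 and 0.078 for Mcm6, -0.20 and 0.034 for Orc2, -0.17 and 0.0044 for Pola1, -0.15 and 0.19 for Pold1, -0.21 and 0.068 for Pold2, -0.32 and 0.11 for Pole2, -0.0094 and 0.24 for Prim2, -0.049 and 0.17 for Rrm1 and -0.13 and 0.016 for Uhrf1. With both replicate 2 libraries left out it was 0.013 for Chaf1a, 0.098 for Lig1, 0.085 for Mcm10, 0.037 for Mcm6, 0.054 for Orc6, 0.025 for Pola1, 0.012 for Pole and 0.063 for Uhrf1, and with quantile normalization it was 0.028 for Mcm6. Neither the pseudocount nor the overlap of matched rows turned a member's sign. The filter, the variance trend and leaving out Tyms, the member whose largest assembled row differed most between libraries, could not turn one. They leave the log2 fold change of every gene kept as it was. Leaving out Tyms, like leaving out both replicate 2 libraries, was chosen after seeing the data.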
